A study of Macaca mulatta with 51 samples.

Results

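ERK feedback genes are here taken as genes that cells switch on when growth factor receptors activate the kinase ERK. Most of their products act back on the same pathway. The set described here holds 10 such genes in 4 families: the Sprouty genes SPRY1, SPRY2 and SPRY4, the Spred genes SPRED1 and SPRED2, the dual-specificity phosphatase genes DUSP4, DUSP5 and DUSP6, and the ETS transcription factor genes ETV4 and ETV5. They were taken by symbol from a gene count table, which held all 10 once each among 16033 genes. Their Ensembl identifiers in the table were ENSG00000164056 (SPRY1), ENSG00000136158 (SPRY2), ENSG00000187678 (SPRY4), ENSG00000166068 (SPRED1), ENSG00000198369 (SPRED2), ENSG00000120875 (DUSP4), ENSG00000138166 (DUSP5), ENSG00000139318 (DUSP6), ENSG00000175832 (ETV4) and ENSG00000244405 (ETV5). These are the identifiers of the human homologs to which the authors matched the macaque genes.

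FGF21 is a circulating hormone that signals through FGF receptors, mainly FGFR1, in cells that also carry the co-receptor beta-klotho (KLB), and adipocytes are a well-known site of its action. An occupied receptor activates the adaptor FRS2, then Ras, RAF, MEK and ERK. ERK in turn induces the Sprouty and Spred proteins, which hold back Ras and RAF, the DUSP phosphatases, which remove phosphate from ERK, and the ETV factors, which carry the signal on to further genes, so transcripts of this set are commonly read as a trace of recent ERK signaling.

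The animals were 10 obese rhesus macaques aged 11 to 22 years, males and ovariectomized females, kept on a high-fat diet before and during the study. All received native human FGF21 by daily subcutaneous injection, in rising doses, for 12 weeks, and 1 animal was held at a lower dose than the others. Punch biopsies of subcutaneous abdominal adipose tissue (AT) and gastrocnemius skeletal muscle (SM) were taken before the first dose (pre-treatment), after the 12 weeks (post-treatment) and once 16 weeks without drug had passed (washout), and mRNA was sequenced. The study reported that the animals lost body weight during treatment and regained it during the washout. There was no untreated arm, so time, drug and weight change cannot be told apart. The AT libraries numbered 10 pre-treatment, 9 post-treatment and 8 at washout and came from 10 animals, whereas the SM libraries numbered 6, 8 and 7 and came from 8, each animal giving at most 1 library per tissue and time point.

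Total counts per library ranged from 15756491 to 23940980 in AT and from 14455195 to 21740711 in SM. The tissue labels held up against marker genes. The summed level of 6 adipocyte markers was 9883 to 34442 CPM (read counts scaled to a library of fixed total) in AT and 297 to 1814.5 CPM in SM, and that of 9 muscle fiber markers was 66.2 to 187 CPM in AT and 57086 to 276555 CPM in SM. Within SM, 4 post-treatment libraries stood apart (animals 20275, 21189, 21866 and 24849). Their summed level of 10 markers of adipose and connective tissue progenitors was 4870 to 17251 CPM, against 361 to 679 CPM in the other 4, 613 to 4973 CPM pre-treatment and 505 to 4558 CPM at washout. Their muscle fiber sum of 57086 to 129918 CPM lay below the 244870 to 276555 CPM of the others. The library numbers in the labels fall into 3 series, whose meaning is not given in the sources used here, and values within the last series are given beside the results they bear on. All levels below are CPM after TMM normalization within the tissue, and since no gene lengths were used, they are compared between samples of 1 gene, not between genes.

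In AT, 3 of the 10 genes were higher post-treatment than pre-treatment and none was lower: DUSP5, DUSP6 and ETV5. A gene was called differentially expressed (DE) at a Benjamini-Hochberg adjusted p (FDR) under 0.05 and a log2 fold change (log2FC) above 0.26 or below -0.26, from edgeR's quasi-likelihood test with the animal as a term, and all 10 genes passed the filter on low counts in both tissues. By the same rule 15.5% of the 13367 genes tested in AT were DE, 6.98% being higher and 8.49% lower. The median log2FC over the 10 genes was 0.35, against 0.03 over all genes tested, and 9 of the 10 fitted changes were above 0. With no adjustment, SPRED1 joined them to make 4 of 10 genes under an edgeR p of 0.05. This is near the general share, as 4581 of the 13367 genes tested were under it. In bulk tissue, more transcript per cell and more cells of a type that carries it cannot be told apart.

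**Figure D1:**
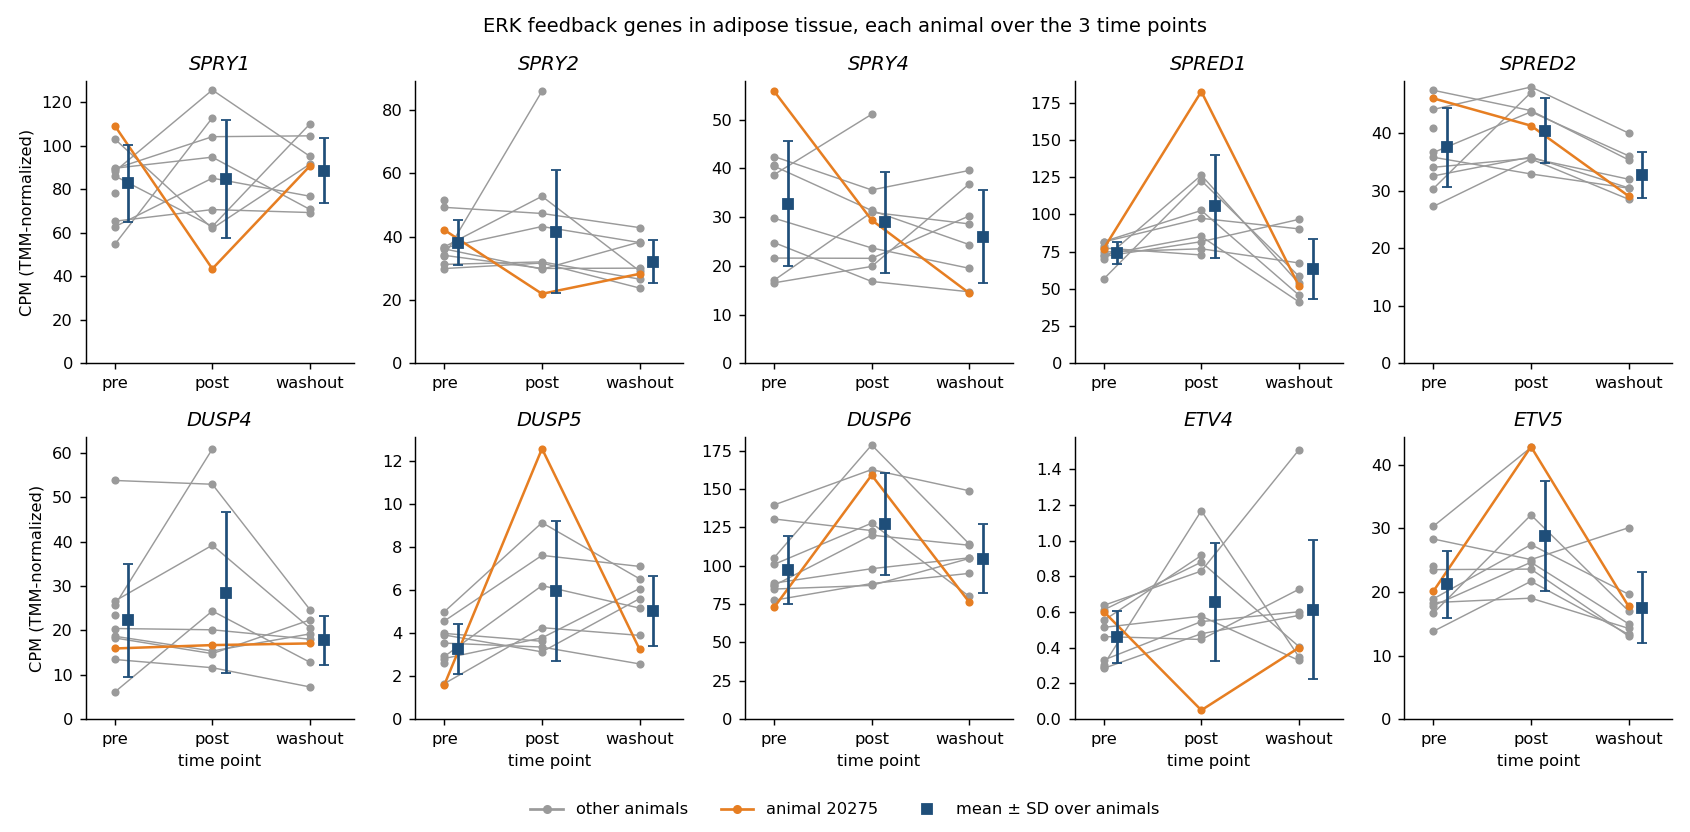
CPM (y axis) of each of the 10 genes in AT at the 3 time points (x axis), with a line per animal, the line of animal 20275 in orange, and squares with bars for the mean ± SD over animals. The mean is highest post-treatment for every gene but SPRY1 and SPRY4, while the time points overlap in every panel.

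The DUSP genes differed among themselves in AT. DUSP5, which encodes a nuclear phosphatase selective for ERK, was expressed at 1.61, 3.22 and 4.995 CPM (lowest, median and highest library) pre-treatment, 3.13, 4.25 and 12.6 CPM post-treatment and 2.57, 5.38 and 7.10 CPM at washout. The highest post-treatment value belonged to animal 20275, which had the lowest pre-treatment value, and 4 of the 9 post-treatment libraries lay above every pre-treatment library. The mean rose from 3.26 ± 1.14 CPM (SD, n = 10) to 5.96 ± 3.25 CPM (SD, n = 9), a log2FC of 0.79 ± 0.27 (SE) with an edgeR adjusted p of 0.0482, and the level was higher in 6 of 9 animals.

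DUSP6, the cytoplasmic ERK phosphatase that is a classical FGF target, was expressed at 72.8, 87.9 and 139.6 CPM pre-treatment, 87.2, 123 and 179 CPM post-treatment and 76.2, 105 and 149 CPM at washout. It was higher post-treatment in 8 of 9 animals, the exception being animal 20456 (130.4 to 123 CPM), yet the groups overlapped over most of their ranges. The log2FC was 0.37 ± 0.12 (SE, adjusted p = 0.0433). DUSP4, which encodes an inducible nuclear phosphatase for ERK and other MAP kinases, spanned 6.11 to 53.8 CPM pre-treatment and 11.6 to 60.8 CPM post-treatment, and its log2FC was 0.32 ± 0.22 (SE, adjusted p = 0.301), with 4 of 9 animals higher.

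ETV5, a PEA3-family transcription factor that ERK both induces and activates, was expressed at 13.8, 19.5 and 30.4 CPM pre-treatment, 19.0, 25.1 and 42.9 CPM post-treatment and 13.1, 16.02 and 30.1 CPM at washout. Animals 20275 and 20456 had the highest post-treatment levels (42.9 and 42.7 CPM), 8 of 9 animals were higher after treatment, and animal 23004 went from 28.3 to 25.1 CPM. The log2FC of ETV5 was 0.46 ± 0.13 (SE, adjusted p = 0.0225). Its relative ETV4 was barely detected in AT, at 0.285 to 0.638 CPM pre-treatment and 0.0503 to 1.17 CPM post-treatment, which is 1 to 25 counts per library after treatment. ETV4 gave a log2FC of 0.44 ± 0.33 (SE, adjusted p = 0.364).

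Of the Spred genes, which encode membrane-bound inhibitors that bring neurofibromin to Ras, SPRED1 was expressed at 56.7, 75.9 and 81.8 CPM pre-treatment, 72.8, 97.4 and 182 CPM post-treatment and 41.3, 56.1 and 96.6 CPM at washout. SPRED1 was higher post-treatment in 8 of 9 animals, and 6 of the 9 post-treatment libraries lay above the whole pre-treatment range. Its log2FC of 0.49 ± 0.17 (SE) missed the threshold at an adjusted p of 0.0595. SPRED2 was expressed at 27.3, 36.3 and 47.5 CPM pre-treatment and 33.0, 41.4 and 48.1 CPM post-treatment, with a log2FC of 0.13 ± 0.08 (SE, adjusted p = 0.272).

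The Sprouty genes, which encode inhibitors acting between the receptor and Ras or RAF, were not called in this comparison. SPRY1 was expressed at 54.7, 87.2 and 109 CPM pre-treatment and 43.5, 85.2 and 126 CPM post-treatment, with a log2FC of 0.01 ± 0.18 (SE, adjusted p = 0.975). Animals moved apart: SPRY1 went from 109 to 43.5 CPM in animal 20275 and from 54.7 to 113 CPM in animal 20456. SPRY2 had a log2FC of 0.09 ± 0.15 (SE, adjusted p = 0.714) and reached 86.0 CPM in animal 20456 post-treatment, against 21.96 to 52.7 CPM in the other 8 animals. SPRY4, at 16.5 to 55.9 CPM pre-treatment and 16.8 to 51.1 CPM post-treatment, was the only one of the 10 with a fitted change below 0, at -0.16 ± 0.22 (SE, adjusted p = 0.647).

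The 3 calls sat close to the threshold. DUSP5 and DUSP6 were not called with voomWithQualityWeights (adjusted p = 0.104 and 0.0514) or with only the 2 time points fitted (adjusted p = 0.107 and 0.0740), while ETV5 was called in both. DUSP5 also missed the threshold with DESeq2 size factors, with either other filter on low counts and with edgeR's earlier quasi-likelihood method, at adjusted p values of 0.0510 to 0.0553, and passed with DESeq2 (0.0232). None of them remained when animal 20261, 20275, 21189 or 22130 was left out, and ETV5 alone remained without animal 21866. DUSP5 was also lost without animal 24849 or 26292, and DUSP6 without animal 23004. In the fits without 20261, 20275, 21189, 22130 or 21866 the log2FC values of DUSP5, DUSP6 and ETV5 stayed between 0.50 and 0.90, 0.27 and 0.39, and 0.38 and 0.52. None remained without the post-treatment library of animal 20275, an alternative added after the data were seen, when DUSP5 had a log2FC of 0.52, DUSP6 of 0.26 and ETV5 of 0.38. With the library number series as a term, DUSP5 (adjusted p = 0.0718) and DUSP6 (adjusted p = 0.0525) missed the threshold, while ETV5 (adjusted p = 0.0295) and SPRED1 (adjusted p = 0.0384) passed. Both AT libraries of 6 animals belong to the last series, and among these DUSP6, ETV5 and SPRED1 were higher post-treatment in 6 of 6 and DUSP5 in 5 of 6. Without the animal term, SPRED1 (adjusted p = 0.0409) and DUSP5 (adjusted p = 0.0380) were called, while DUSP6 and ETV5 were not.

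Animals differed in how many of the genes moved up. In animals 20261 and 21189, 9 of the 10 genes were higher post-treatment, with a median log2 change of 0.21 and 0.81, whereas in animal 23004 only 4 of 10 were higher, with a median of -0.03. In animal 20275 the set split, with 5 genes higher and 5 lower, DUSP5 going from 1.61 to 12.6 CPM and SPRY4 from 55.9 to 29.4 CPM.

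After washout, 3 genes were lower in AT than post-treatment, namely SPRED1, SPRED2 and ETV5, and none of the 10 was DE higher. ETV5 was the 1 gene called in both comparisons. In this comparison 35.4% of all genes tested were DE, 17.6% higher and 17.8% lower (2979 and 1750 genes when scaled by library size alone), so a count of 3 in 10 is near the general share. The median log2FC of the 10 genes was -0.24, against 0.00 over all genes tested, and 9 of 10 fitted changes were below 0. The comparison uses the same post-treatment libraries as the one before it.

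SPRED1 had the largest fitted decrease of the set, a log2FC of -0.76 ± 0.18 (SE, adjusted p = 0.00348), and was lower at washout in 7 of 8 animals, the exception being animal 26292 (81.7 to 96.6 CPM). ETV5 followed with -0.65 ± 0.13 (SE, adjusted p = 0.00121) and was lower in 7 of 8 animals, with animal 23004 going from 25.1 to 30.1 CPM. SPRED2 changed least among the called genes, by -0.30 ± 0.09 (SE, adjusted p = 0.0102), but was lower in all 8 animals, from 33.0 to 48.1 CPM before to 28.6 to 40.1 CPM after. The same 3 genes were called whichever animal was left out and without the post-treatment library of animal 20275. Scaling by library size alone left SPRED2 without a call, at a log2FC of -0.23. In the 3 animals with both libraries in the last series, all 3 genes were lower in 3 of 3.

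DUSP5 and DUSP6, which had risen, were not DE between post-treatment and washout, at log2FC values of -0.22 ± 0.27 (SE, adjusted p = 0.538) for DUSP5 and -0.24 ± 0.13 (SE, adjusted p = 0.135) for DUSP6. DUSP4 had -0.42 ± 0.23 (SE, adjusted p = 0.153) and was called with the library number series as a term, at -0.62. The Sprouty genes ranged from -0.23 (SPRY2) to 0.08 (SPRY1), and ETV4 stood at -0.06.

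Between washout and pre-treatment, none of the 10 genes was DE in AT, while 20.5% of all genes tested were, 12.5% higher and 7.96% lower (2313 and 590 genes when scaled by library size alone, which moved the median of all genes from -0.02 to 0.08). None reached an unadjusted p under 0.05 in edgeR, against 4549 of the 13367 genes tested. DESeq2 and voomWithQualityWeights also called none of the 10. DUSP5 came closest, with 5.02 ± 1.62 CPM (SD, n = 8) at washout against 3.26 ± 1.14 CPM (SD, n = 10) pre-treatment, a log2FC of 0.57 ± 0.28 (SE, adjusted p = 0.156), with 7 of 8 animals above their own start. The gene was called when only the 2 time points entered the fit (adjusted p = 0.0180) or when the post-treatment library of animal 20275 was left out (adjusted p = 0.0277). The other 9 genes had fitted changes between -0.28 (SPRED1) and 0.38 (ETV4).

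**Figure D2:**
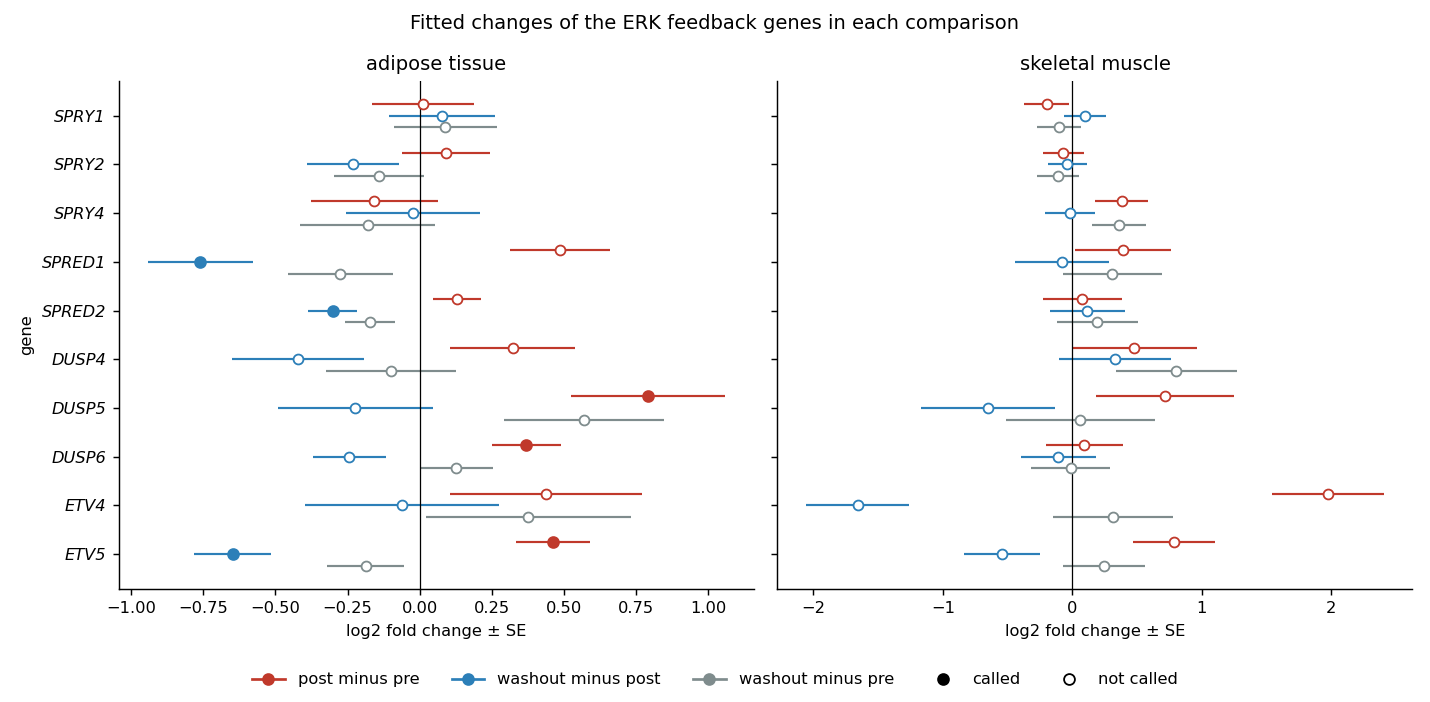
Fitted log2FC ± SE (x axis) of each gene (y axis) in the 3 comparisons, in AT (left) and SM (right, on a wider scale), with filled points for DE genes and open points for the others. In AT, DUSP5, DUSP6 and ETV5 are filled for post-treatment minus pre-treatment and SPRED1, SPRED2 and ETV5 for washout minus post-treatment, and no point is filled in SM.

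Of 12 macrophage markers in AT, 3 were DE higher post-treatment, against 6.98% of all genes tested. At washout 11 were DE lower than post-treatment (17.8% of all genes tested) and 6 DE lower than pre-treatment (7.96%). SPRED1 (log2FC -0.28) and ETV5 (-0.19) were not DE between washout and pre-treatment. The summed level of 12 macrophage markers was 811, 1596 and 2671 CPM (lowest, median and highest library) pre-treatment, 1063, 2826 and 5710 CPM post-treatment and 443, 751 and 2336 CPM at washout, with none of the 12 at 0 throughout a time point. The library with the highest sum, 20275 post-treatment, also had the highest SPRED1 (182 CPM), ETV5 (42.9 CPM) and DUSP5 (12.6 CPM). Pre-treatment, by contrast, the highest macrophage sum was in animal 23004, the highest SPRED1 in animal 21866 and the highest ETV5 in animal 20456. The washout libraries were split after their values were seen. At washout, animals 23004 and 26292 had the highest macrophage sums, 2336 and 1522 CPM against 443 to 950 CPM in the other 6. These same 2 libraries had SPRED1 at 90.3 and 96.6 CPM against 41.3 to 67.4 CPM, and ETV5 at 30.1 and 19.7 CPM against 13.1 to 17.8 CPM. The other 8 genes of the set overlapped between these 2 libraries and the rest. How many of all genes tested separate these libraries was not counted. The part of macrophage transcripts in the SPRED1 and ETV5 changes was not tested.

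Progenitor markers (10 of 10 measured) summed to 12974 to 29565 CPM pre-treatment, 16972 to 40812 CPM post-treatment and 10524 to 35739 CPM at washout in AT, and adipocyte markers (6 of 10 measured) to 16794 to 34442, 9883 to 30574 and 10839 to 31308 CPM. Among the progenitor markers 8 of 10 were fitted higher post-treatment, DPP4 and COL1A1 being DE, and 9 of 10 were fitted lower at washout than post-treatment, 4 being DE. Also at washout against post-treatment, 4 of 9 endothelial, 2 of 5 smooth muscle and 3 of 3 erythroid markers tested were DE higher. Over all genes tested, 17.6% were DE higher and 17.8% lower in that comparison. Among 15 immediate early genes, which respond rapidly to acute stimulation, JUN alone was DE post-treatment (log2FC 0.50, adjusted p = 0.0364, named after its values were seen), 13 of 15 fitted changes being above 0. Their summed level was highest post-treatment in the library of animal 20275 again, at 1145 CPM, against 362 to 727 CPM in the other 8 animals. The part of all these cells and of acute stimulation in the changes of the set was not tested.

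Other feedback and target genes listed for the pathway moved in both directions in AT. Of 19 further ERK feedback and target genes tested, 1 was higher and 4 were lower post-treatment, against 6.98% and 8.49% of all genes tested. DUSP16, a phosphatase for JNK and p38, rose from 29.7 ± 4.94 CPM (SD, n = 10) to 38.4 ± 6.73 CPM (SD, n = 9), by 0.41 ± 0.09 on the log2 scale (SE, adjusted p = 0.0106). DUSP14 fell from 42.9 ± 9.66 to 21.99 ± 7.66 CPM, a log2FC of -1.07 ± 0.16 (SE, adjusted p = 0.000923), and DUSP10, another phosphatase for p38 and JNK, fell from 19.1 ± 6.66 to 10.1 ± 4.39 CPM (log2FC -0.996 ± 0.206, adjusted p = 0.00599). The other 2 lower genes, SPRY3 (-0.53) and CCND1 (-0.40), are named after their values were seen.

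At washout DUSP14 and DUSP10 returned to 42.0 and 18.0 CPM and DUSP16 dropped to 20.3 CPM, all 3 being DE against post-treatment. In that comparison 4 of the 19 genes were higher and 4 lower, against 17.6% and 17.8% of all genes tested. IL17RD, a membrane inhibitor of FGF signaling also known as Sef, fell from 29.2 ± 12.2 to 13.9 ± 10.1 CPM (log2FC -1.24 ± 0.29, adjusted p = 0.00338), and DUSP7, a cytoplasmic ERK phosphatase close to DUSP6, from 18.2 ± 4.30 to 12.1 ± 2.50 CPM (-0.61 ± 0.11, adjusted p = 0.000369). SPRED3, a further Spred gene, was DE higher at washout, from 0.156 ± 0.139 to 0.405 ± 0.300 CPM. Against pre-treatment, EPHA2 and LIF, which are induced by ERK signaling in many cells, were among 3 genes DE higher at washout, by 0.58 ± 0.19 (adjusted p = 0.0380) and 0.78 ± 0.21 (adjusted p = 0.0101) on the log2 scale, and 3 were DE lower: IL17RD (-0.965 ± 0.285, adjusted p = 0.0198), DUSP16 (-0.51 ± 0.10, adjusted p = 0.000828) and DUSP7 (-0.33 ± 0.11, adjusted p = 0.0391). Over all genes tested, 12.5% were DE higher and 7.96% lower at washout than pre-treatment.

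Of the receptors, FGFR1 was expressed at 241 ± 30.4 CPM pre-treatment, 257 ± 40.1 CPM post-treatment and 254 ± 31.4 CPM at washout in AT and was not DE in any comparison. KLB went from 93.6 ± 26.5 to 55.8 ± 24.6 CPM post-treatment, a log2FC of -0.75 ± 0.26 with an adjusted p of 0.0536. At washout KLB stood at 60.4 ± 29.1 CPM. It was not DE there against post-treatment (log2FC 0.08, adjusted p = 0.834) or pre-treatment (-0.66, adjusted p = 0.0811). FGFR2, a receptor most active in epithelial cells, fell from 36.7 ± 7.32 to 16.4 ± 9.88 CPM post-treatment (log2FC -1.26 ± 0.25, adjusted p = 0.00526) and returned to 36.7 ± 11.7 CPM at washout, the only 1 of 6 receptor genes DE after treatment. FGFR4, barely detected, was higher at washout than post-treatment, at 0.735 ± 0.977 against 0.252 ± 0.279 CPM (log2FC 1.30 ± 0.45, adjusted p = 0.0269). None of 6 FGF ligand genes was DE post-treatment, and FGF9 alone was higher at washout than post-treatment (0.934 ± 0.643 against 0.408 ± 0.294 CPM, adjusted p = 0.0257).

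In the ERK cascade itself, 1 of 22 genes was DE post-treatment (HRAS, -0.47, named after its values were seen), whereas 10 were lower and 1 higher at washout than post-treatment. Over all genes tested, 15.5% were DE post-treatment, and 17.8% were lower and 17.6% higher at washout than post-treatment. Among the lower genes, RPS6KA1, which encodes the ERK-activated kinase RSK1, fell from 56.2 ± 32.3 to 21.7 ± 17.8 CPM, a log2FC of -1.53 ± 0.36 (adjusted p = 0.00310). PTPN11, BRAF, NRAS, GRB2 and NF1 fell as well, with log2FC values between -0.88 (PTPN11) and -0.51 (NF1), and FRS3, a membrane adaptor of FGF receptors, rose from 4.27 to 7.81 CPM. PTPN11, BRAF, GRB2 and NF1 were among 7 genes also DE lower at washout than pre-treatment, and FRS3 was DE higher, against 7.96% and 12.5% of all genes tested.

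The gene of each family with the highest mean CPM was compared with all other genes across the 27 AT libraries, after subtraction of each animal's mean log2 CPM, which leaves nothing of the single library of animal 19832. These correlations are a description over libraries that share animals and processing. SPRED1 was most like PTBP3, STK4 and GNA13 (Pearson r = 0.975, 0.973 and 0.971), and ETV5 was most like SNX30, CTSK and ARFGAP3 (r = 0.931, 0.930 and 0.930). DUSP6 was most like MEAF6, TMEM9B and CENPQ (r = 0.865, 0.825 and 0.823), and SPRY1 like CYTH3, ARHGAP29 and LNX1 (r = 0.813, 0.813 and 0.784).

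Within the set, SPRED1 and ETV5 had r = 0.849, DUSP6 had r = 0.727 with DUSP5, 0.640 with ETV5 and 0.620 with SPRED1, ETV5 had r = 0.672 with SPRED2, and SPRY1 had r = 0.697 with SPRY2 and 0.595 with ETV4. Many other genes were more strongly correlated: ETV5 ranked 486 for SPRED1, DUSP5 ranked 144 for DUSP6 and SPRY2 ranked 38 for SPRY1. SPRY1 ran opposite to DUSP5 (r = -0.497), DUSP6 (r = -0.462) and SPRED1 (r = -0.434). The 10 genes thus did not share 1 profile over the AT libraries.

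In SM, none of the 10 genes was DE post-treatment against pre-treatment, nor was any of the 12617 genes tested (0%). In edgeR, 2 of the 10 genes, ETV4 and ETV5, had an unadjusted p under 0.05, as did 409 of the 12617 genes tested. DESeq2 and voomWithQualityWeights called none of the 10 at the adjusted threshold. The median log2FC of the set was 0.39, against -0.02 over all genes tested, with 8 of 10 above 0.

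ETV4 gave the clearest movement in muscle. It was expressed at 0.232, 0.932 and 1.52 CPM (lowest, median and highest library) pre-treatment, 1.18, 3.02 and 15.4 CPM post-treatment and 0.367, 1.0004 and 1.74 CPM at washout. All but the lowest of the 8 post-treatment libraries lay above every pre-treatment library, and animals 21189 and 21866 were far above the rest, at 15.4 and 9.08 CPM against 1.18 to 3.78 CPM. ETV4 was higher in 6 of 6 animals with both time points, and its log2FC was 1.97 ± 0.43 (SE) with an unadjusted edgeR p of 0.000373 and an adjusted p of 0.940. Without animal 21189 the log2FC was 1.63, and without the 4 post-treatment libraries of high progenitor sum it was 1.48 (unadjusted edgeR p = 0.00808, adjusted p = 0.172), an alternative added after the data were seen.

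From post-treatment to washout, ETV4 had a log2FC of -1.66 ± 0.40 (SE, adjusted p = 0.107) and was lower in 7 of 7 animals. None of the 10 genes was DE in this comparison, in which 0.19% of all genes tested were, 0.182% higher and 0.00793% lower. ETV4 was called with DESeq2 (adjusted p = 0.00953), without the animal term (adjusted p = 0.0413) and with the library number series as a term (adjusted p = 0.00579). In the 2 animals with both libraries in the last series it was lower in both, with a median log2 change of -2.45. Without animal 21189 the log2FC was -1.29, and without the 4 libraries of high progenitor sum it was -1.19 (adjusted p = 0.272). At washout ETV4 did not differ detectably from pre-treatment, at 0.31 ± 0.46 (SE, adjusted p = 0.812), and none of the 10 genes was DE, as against 0.0634% of all genes tested.

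ETV5 in muscle was expressed at 1.63, 5.42 and 21.1 CPM pre-treatment, 6.57, 10.1 and 29.5 CPM post-treatment and 3.58, 5.89 and 20.6 CPM at washout. Animal 21189 had the highest ETV5 level at each time point, and its 21.1 CPM pre-treatment exceeded all but 2 of the post-treatment libraries. ETV5 had a log2FC of 0.79 ± 0.31 (SE, adjusted p = 1.0) post-treatment, with 5 of 6 animals higher, and of -0.54 ± 0.29 (SE, adjusted p = 0.357) at washout against post-treatment, with 6 of 7 lower. No animal had both SM pre-treatment and post-treatment libraries in the last series, and within the first series animal 22130 alone had both, with ETV4 going from 0.665 to 3.21 CPM and ETV5 from 4.26 to 10.5 CPM.

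**Figure D3:**
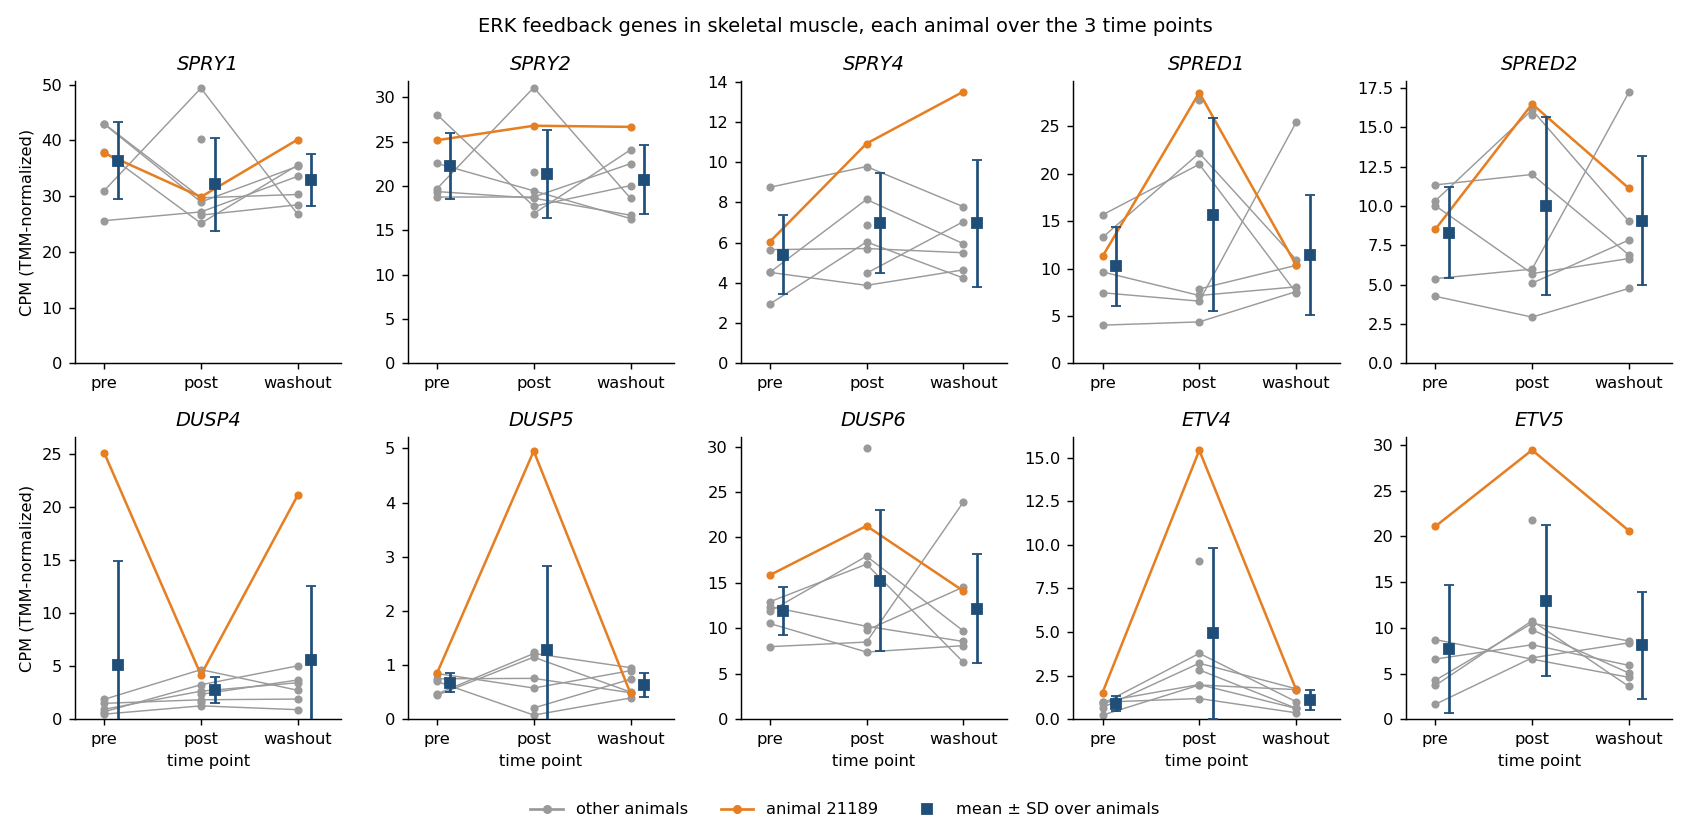
CPM (y axis) of each of the 10 genes in SM at the 3 time points (x axis), with a line per animal, the line of animal 21189 in orange, and squares with bars for the mean ± SD over animals. ETV4 is highest post-treatment in all 6 animals with 3 libraries, and animal 21189 lies above the others for DUSP4 and ETV5 before treatment and at washout.

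Animal 21189 stood out in muscle for several of the genes. Its DUSP4 level was 25.1 CPM pre-treatment, 4.17 CPM post-treatment and 21.1 CPM at washout, against 0.474 to 1.87, 1.26 to 4.67 and 0.896 to 5.03 CPM in the other animals, so that DUSP4 in this animal ran opposite to the other 5 animals with both libraries, which were all higher post-treatment. DUSP5 was at 0.846 CPM pre-treatment, 4.95 CPM post-treatment and 0.475 CPM at washout in this animal, and between 0.0754 and 1.25 CPM in all others. Over all animals DUSP4 had a log2FC of 0.48 ± 0.48 and DUSP5 of 0.71 ± 0.53 post-treatment (SE, adjusted p = 1.0 for each), and without animal 21189 the values were 1.22 and 0.15. Without animal 19832, 22130 or 24849 DUSP4 stood at 0.25 to 0.28. The muscle of animal 21189 also had the highest sum of 6 satellite cell markers at each time point. These sums were 178, 284 and 148 CPM, against group medians of 119, 94.6 and 93.4 CPM. Post-treatment it had the highest progenitor (17251 CPM) and smooth muscle (650 CPM) sums as well. The part of these cells in its values was not tested.

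The Spred genes and DUSP6 in SM were higher in the libraries with high progenitor sums described above. In the 4 post-treatment libraries with a progenitor sum of 4870 to 17251 CPM, SPRED1 was at 21.0 to 28.6 CPM, SPRED2 at 12.01 to 16.5 CPM and DUSP6 at 17.1 to 29.9 CPM. In the other 4, with a sum of 361 to 679 CPM, they were at 4.37 to 7.86, 2.94 to 5.99 and 7.39 to 10.2 CPM. SPRY1, SPRY2 and SPRY4 were also higher without overlap in the libraries of high sum, while DUSP4, DUSP5, ETV4 and ETV5 overlapped. How many of all genes tested separate the same libraries was not counted, so nothing is read from the number of members that do. The same 4 libraries had higher sums of macrophage markers (182 to 243 CPM against 24.3 to 43.9 CPM) and smooth muscle markers (171 to 650 CPM against 65.7 to 133 CPM), while endothelial, T cell and adipocyte sums overlapped. All 4 libraries with low sums belong to the first library number series and 3 of those with high sums to the last, so series and marker sum largely cannot be told apart. The library of animal 20275, of the first series, had a high progenitor sum (7305 CPM) and SPRED1 at 22.2 CPM, SPRED2 at 16.1 CPM and DUSP6 at 17.9 CPM. The washout library of animal 22130, with the highest sums of progenitor (4558 CPM), macrophage (468 CPM), endothelial (370.0 CPM) and smooth muscle markers (357 CPM) at washout, had the highest SPRED1 (25.4 CPM), SPRED2 (17.2 CPM) and DUSP6 (23.9 CPM) at that time. By contrast, the pre-treatment library of animal 24849, with a progenitor sum of 4973 CPM, had SPRED1 at 15.7 CPM and SPRED2 at 11.3 CPM. Both values lay below those of the 4 post-treatment libraries of high sum. The part of these cells and of the series was not tested. With the 4 post-treatment libraries left out, the log2FC values of SPRED1, SPRED2 and DUSP6 post-treatment were -0.46, -0.55 and -0.44, against 0.39, 0.08 and 0.09 with all libraries, and none was called in either case. The split of the libraries was made after their values were seen and was not tested.

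**Figure D4:**
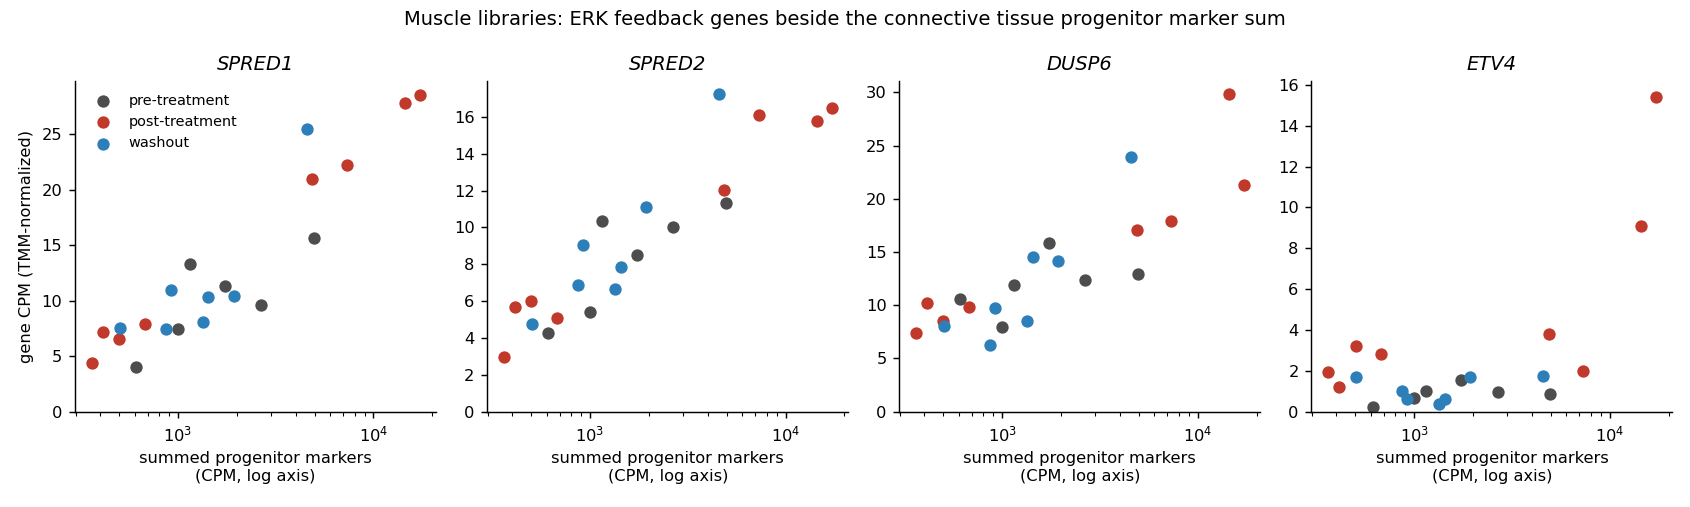
CPM (y axis) of SPRED1, SPRED2, DUSP6 and ETV4 in the 21 SM libraries against the summed CPM of 10 progenitor markers in the same library (x axis, log scale), with points colored by time point. Post-treatment, SPRED1, SPRED2 and DUSP6 are higher in the 4 libraries of high marker sum than in the 4 of low sum. The pre-treatment library of animal 24849, with a sum of 4973 CPM, lies below those 4 of high sum for SPRED1 and SPRED2. ETV4 is above 8 CPM in 2 post-treatment libraries, both of high marker sum, and under 4 CPM in the rest. Post-treatment, ETV4 spans 1.99 to 15.4 CPM in the 4 libraries of high sum. In the 4 of low sum it spans 1.18 to 3.21 CPM, so the ranges overlap.

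The change with treatment did not differ detectably between the tissues for any of the 10 genes. The test of the difference, SM change minus AT change, called none of the 10 in edgeR, as against 0.0487% of the 12322 genes tested in both tissues, and DESeq2 and voomWithQualityWeights called none as well. ETV4 alone of the 10 had an unadjusted p under 0.05, as did 1306 of the 12322 genes tested. The ETV4 difference was 1.59 ± 0.56 on the log2 scale (SE, unadjusted edgeR p = 0.00815, adjusted p = 0.291). The differences for DUSP5, DUSP6, ETV5 and SPRED1 were -0.14 ± 0.58, -0.23 ± 0.29, 0.39 ± 0.33 and -0.06 ± 0.38 (SE), so no change was shown to be particular to AT.

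Before treatment the set was mostly expressed at a lower level in SM than in AT. For this comparison CPM were scaled over both tissues together. Of the 10 genes, 8 were lower and 1 was higher in SM, where 77.8% of all genes tested differed, 41.2% being lower and 36.6% higher. The median log2 difference of the set was -1.502, against -0.09 over all genes tested.

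The largest differences were in DUSP4, DUSP6 and SPRED1. DUSP6 was at 57.1, 69.6 and 111 CPM (lowest, median and highest library) in AT and 11.01, 16.4 and 21.99 CPM in SM, without overlap, a log2 difference of -2.24 ± 0.26 (SE, adjusted p = 1.59e-09). SPRED1 was at 45.1, 59.2 and 64.9 CPM in AT and 5.27, 14.4 and 21.6 CPM in SM, also without overlap (-2.17 ± 0.33, adjusted p = 3.08e-07). DUSP4 was at 4.74, 15.5 and 42.8 CPM in AT and 0.635, 1.65 and 34.8 CPM in SM (-2.47 ± 0.61, adjusted p = 0.000410), the highest SM library being that of animal 21189.

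SPRY4 (-1.89 ± 0.30), SPRED2 (-1.45 ± 0.25) and DUSP5 (-1.55 ± 0.41) were lower in SM as well, with no overlap between the tissues. In the 6 animals with both tissues these 3 genes, SPRED1 and DUSP6 were lower in SM in 6 of 6. ETV5 (-0.93 ± 0.34, adjusted p = 0.0126) and SPRY1 (-0.41 ± 0.18, adjusted p = 0.0346) were lower by less and overlapped. SPRY1 lost its call without animal 21189, 22130 or 24849 and ETV5 without animal 19832 or 20275, and with voomWithQualityWeights neither was called. SPRY1 was not called with DESeq2 or with the library number series as a term either, nor ETV5 without the animal term. SPRY2 had a difference of -0.03 ± 0.17 (SE, adjusted p = 0.896). Scaling by library size alone moved the median of all genes to -0.80 and the calls to 2181 higher and 7488 lower, and SPRY2 to -0.74, which was then called, while DESeq2 size factors gave 0.04. Relative to all genes SPRY2 thus stayed near 0.

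ETV4 alone ran the other way. It was at 0.222, 0.389 and 0.494 CPM in AT and 0.304, 1.27 and 2.11 CPM in SM before treatment, a log2 difference of 1.78 ± 0.42 (SE, adjusted p = 0.000254), and all 6 animals with both tissues had more in SM. Post-treatment the tissues did not overlap, at 0.0394 to 0.909 CPM in AT and 1.60 to 21.2 CPM in SM. DUSP6 stayed without overlap at both later time points, at 67.8 to 138 CPM against 10.4 to 41.7 CPM post-treatment and 59.8 to 118 CPM against 9.35 to 32.6 CPM at washout.

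**Figure D5:**
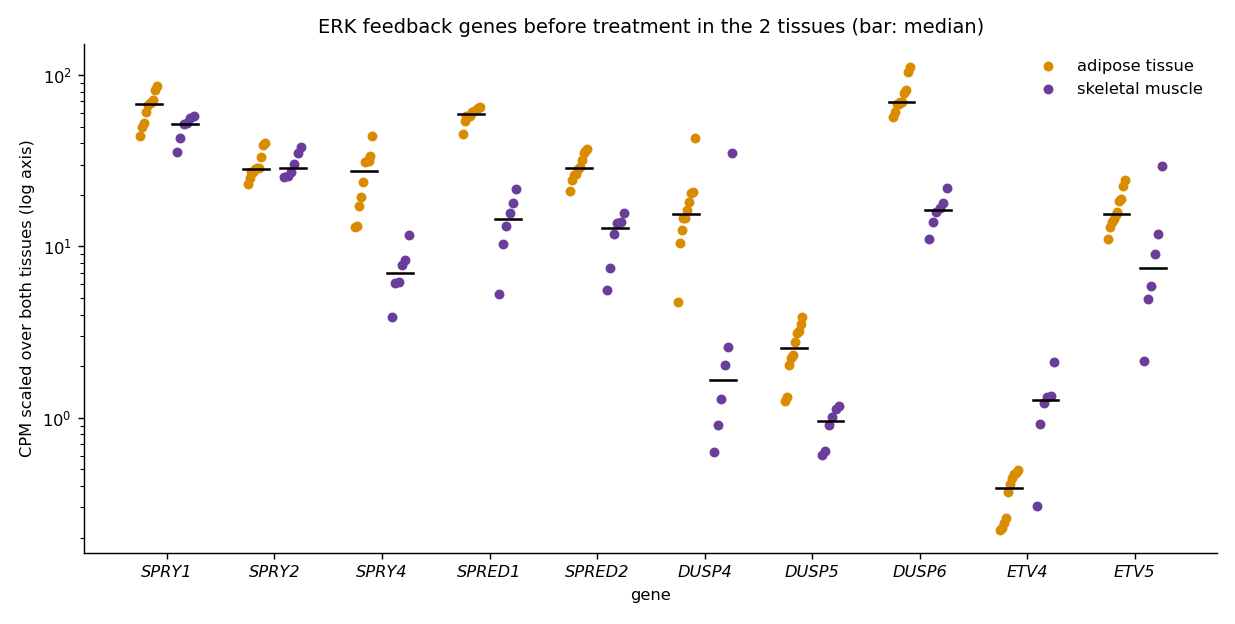
CPM scaled over both tissues (y axis, log scale) of each gene (x axis) in the pre-treatment libraries of AT (orange, n = 10) and SM (purple, n = 6), with bars at the medians. SPRY4, SPRED1, SPRED2, DUSP5 and DUSP6 are lower in every SM library than in every AT library, SPRY2 overlaps widely, and ETV4 has the higher median in SM.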

How the data were processed

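Per the study's methods, stranded mRNA libraries from punch biopsies were sequenced as read pairs. The authors aligned reads with STAR to the MacaM macaque genome, and deposited whole-number read counts per gene, not normalized. The counting tool and its strand setting are not given in the sources used here. Counts were used for 48 of 51 labelled samples, and of 16103 entries the first for each gene identifier was kept (16033 genes). Genes with at least 0.5 CPM in a share of 0.1 of a tissue's libraries were tested with edgeR 4.0.16 (TMM, robust quasi-likelihood test, R 4.3.3), with time point and animal as terms and Benjamini-Hochberg adjustment over all genes tested. The animal number in the labels pairs the libraries: deviations of same-animal libraries correlated by a median of 0.352 in AT and 0.279 in SM, against -0.0354 and -0.0464 between animals. Reported levels are CPM with the SD over animals, each animal being 1 replicate.

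Alternatives used limma 3.58.1 (voomWithQualityWeights), DESeq2 1.42.0, other scalings, filters and terms, and left out each animal in turn. The fits were tested on simulated data. The 10 genes and all lists were chosen with earlier results of these data known. Genes named outside the 10 were FGFR1, KLB, up to 8 genes per pathway list that were DE in AT, by fold change, and the 3 genes most correlated with a member of each family, and a few named after their values were seen. A result that this rule would name is not reported here. Low counts, as for ETV4, carry the widest errors.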

Additional observations from a re-analysis of the deposited data

Results flagged for a closer look

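Each gene's values in each tissue and time point (60 groups of 6 to 10 libraries) were checked for a library far from the rest by Dixon's ratio, the gap to the nearest library as a share of the whole range. For normally distributed and independent values about 1 in 20 groups would be picked, and 13 of 60 were. The ratio was taken on CPM without a log scale and the groups share libraries, so that rate need not hold here. Of these, 5 came from the muscle of animal 21189 before treatment or at washout: DUSP4 at 25.1 CPM pre-treatment and 21.1 CPM at washout, ETV5 at 21.1 CPM pre-treatment and 20.6 CPM at washout, and SPRY4 at 13.5 CPM at washout, each the highest of its group. The same animal's post-treatment muscle had the highest DUSP5, 4.95 CPM, and its washout AT the highest ETV4, 1.51 CPM. For SPRED1, 3 libraries were picked: 182 CPM in AT of animal 20275 post-treatment (highest), and from animal 22130 56.7 CPM in AT pre-treatment (lowest) and 25.4 CPM in SM at washout (highest). Animal 23004 had the highest DUSP4 in AT pre-treatment, 53.8 CPM, and the highest ETV5 in AT at washout, 30.1 CPM. SPRY2 in AT post-treatment was highest in animal 20456, at 86.0 CPM. What sets these libraries apart was not tested.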

How the results depend on the processing

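The count of 3 genes called post-treatment in AT became 1 with voomWithQualityWeights, 1 with only the 2 time points fitted, 0 without the pre-treatment library of animal 20275, 0 without its post-treatment library (an alternative added after the data were seen) and 0 to 4 with an animal left out. For washout against pre-treatment it rose from 0 to 1 in the 2-time-point fit and 1 without the post-treatment library of animal 20275. In SM, washout against post-treatment, it rose from 0 to 1 with DESeq2, 1 without a replicate block for the animal and 2 with the library number series as a term (ETV4 and DUSP5). The other 153 counts over comparisons and alternatives stayed within 1.5 times, including all 3 called at washout against post-treatment in AT whichever animal was left out and those from edgeR's earlier quasi-likelihood method, also added after the data were seen. Over all genes, the 2068 called post-treatment in AT became 998 without animal 20275, 1316 without 21189 and 805 without 22130, 1162 without the pre-treatment and 1329 without the post-treatment library of animal 20275. The 24 called at washout against post-treatment in SM became 359 with DESeq2, 216 without the block, 2648 with the series term and 0 without animal 19832. The 8 called at washout against pre-treatment in SM became 170, 41, 1353 and 0, and the 6 of the tissue difference in change became 74 with DESeq2, 3 without the block and 60 with the series term. The causes were not tested.

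Log2 values of single genes changed sign under alternatives only where the gene was not called in the fit reported. With voomWithQualityWeights these were SPRY1 in AT, washout against post-treatment (-0.060), in SM post-treatment SPRED1 (-0.083), SPRED2 (-0.14), DUSP5 (-0.029) and DUSP6 (-0.14), at washout against post-treatment SPRY2 (0.070), SPRY4 (0.14) and DUSP5 (0.054), at washout against pre-treatment SPRED1 (-0.12) and ETV4 (-0.028), and between tissues DUSP4 for the change (-0.26) and SPRY2 before treatment (0.035). Library size alone turned SPRY4 (0.048), ETV4 (0.013) and DUSP4 (0.0081, against pre-treatment) at washout in AT, and SPRY1 (-0.023) and SPRED2 (-0.035) at washout in SM. DESeq2 and its size factors turned DUSP6 at washout in SM (0.016 and 0.019) and SPRY2 between tissues (0.043 and 0.042). Without the replicate block, the values were -0.90 for DUSP4 post-treatment in SM, -0.15 for SPRED2 at washout against post-treatment, -0.081 and 0.029 for DUSP5 and DUSP6 against pre-treatment, 0.15, 0.21, -1.23, 0.12 and 0.020 for SPRED1, SPRED2, DUSP4, DUSP5 and DUSP6 in the tissue difference of the change, and 0.010 for SPRY2 before treatment. The series term turned SPRY4 (0.023) and ETV4 (0.13) at washout against post-treatment in AT, SPRY2 post-treatment (0.089), SPRY1 (-0.19) and SPRED2 (-0.25) at washout against post-treatment and DUSP5 (-0.69) and ETV4 (-0.19) at washout against pre-treatment in SM, and between tissues SPRED2 for the change (0.059) and SPRY2 (0.15). The 2-time-point fit turned SPRY1 post-treatment in AT (-0.011) and DUSP5 at washout against pre-treatment in SM (-0.094). Leaving out 1 animal turned 56 of 740 values, and leaving out named libraries 13 of 90.

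Depth limits ETV4 in AT (at most 28 counts a library) and DUSP5 in SM. ETV4 in both tissues and DUSP4 and DUSP5 in SM had no value with at least 10 counts required in every library.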
